A study of Zea mays with 12 samples.

Results

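The genes described here are those that start between 140000000 and 149999999 on maize chromosome 10, on the build B73 RefGen_v3. The interval is the last stretch of the chromosome in the tables, and 402 of the 39513 genes counted here lie in it. A further gene of the interval was set aside in all counts. The interval was chosen by the same values that are described below, since many of its genes had already been seen to differ between the genotypes in both tissues. Its calls and ratios are therefore given as a description, and no test of the interval against other regions was made.

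RNA was sequenced from Sdw3, which the series title calls a mutant of maize (Zea mays), and from N18; the labels give both as cultivars. The 4 groups were the Sdw3 developing internode, the N18 developing internode, the Sdw3 ligular region and the N18 ligular region, with 3 libraries each. The internode, a growing stem segment, was taken between leaf 7 and leaf 8, and the ligular region, the zone between sheath and blade where the ligule forms, was taken from leaf 8 and leaf 9. Tissue was collected at the V7 stage, and no treatment is given. The labels do not say how Sdw3 and N18 are related or how much of their genomes they share, nor whether the 3 libraries of a group came from separate plants. Each level below is the authors' FPKM (fragments per kilobase of transcript, scaled to the fragments of the library), combined by them over the libraries of a group. No spread between libraries can therefore be given beside a level, and the depth of each library is unknown. A gene is called higher or lower when its adjusted p for Sdw3 against N18 within a tissue is under 0.05 in the authors' deposited table. Against markers of the tissues, the ligule gene lg1 was at 15.0 in Sdw3 and 14.9 in N18 in the ligular region, and in the internode it was at 0.183 and 0.125. The stem homeobox gene kn1 was at 180 and 172 in the internode, and the ligular samples of both genotypes listed it at 0. The ligule gene lg2 was at 2.95 and 0.925 in the ligular region and at 0.612 and 0.235 in the internode. The gene lg3, named for a mutant with a ligule defect, was highest in the internode, at 51.5 and 34.2, and in the ligular region it was at 0 and 0.0727. Both tissues hold several cell types, so fewer cells of a type and less RNA per cell cannot be told apart in any level below.

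Maize chromosomes carry most of their genes towards the ends of the arms, where recombination is also most frequent. When lines differ in DNA sequence over a stretch, neighbouring genes can differ in RNA level each through its own regulatory sequence, or through a factor encoded elsewhere. RNA levels alone do not separate these, and reads of either line are counted by how well they align to the reference line B73. The sequence of Sdw3 and N18 in the interval was not analysed here, so its part in the values below was not tested.

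In the internode, 58 of the 281 interval genes that the authors tested were called, or 20.6%, against a background of 11.3% of all genes. Of these, 31 were higher in Sdw3 (11% of the tested genes; background 6.54%) and 27 were lower (9.61%; background 4.76%). In the ligular region 76 of 287 tested genes were called, or 26.5%, which is near the background of 26.8%. There, 40 were higher (13.9% of the tested genes, background 13.1%) and 36 lower (12.5%, background 13.7%). Of the 265 genes tested in both tissues, 25 were called in the same direction in both, or 9.43%, against 3.31% of all genes. Of these 25 shared calls, 16 were higher in Sdw3 (6.04% of the 265 genes, background 2.27%) and 9 lower (3.4%, background 1.04%). A further 6 genes were called in opposite directions (2.26% of the 265 genes, near the background of 1.75%). Of the 303 genes tested in at least 1 tissue, 27 were called in the internode alone (8.91%, background 5.77%). Another 45 were called in the ligular region alone (14.9%, background 21.4%). The remaining 169 genes tested in both tissues were called in neither.

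Most called changes were small. The median size of a called log2 ratio, log2((Sdw3 FPKM + 1)/(N18 FPKM + 1)), was 0.53 for the internode and 0.59 for the ligular region. At least 2-fold changes on that scale were seen for 11 of the 58 and 15 of the 76 called genes. Over interval genes whose higher genotype reached an FPKM of 1, the median log2 ratio was -0.03 for the internode (280 genes) and -0.02 for the ligular region (286 genes), beside -0.03 and -0.00 over all genes. Its genes spread slightly more in the internode, with a median absolute log2 ratio of 0.17 against 0.14 for all genes, and by 0.18 against 0.19 in the ligular region.

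Along the chromosome, the shared calls began sparsely and became dense towards the end. From 140 to 144 Mb, 2 of 100 genes tested in both tissues were shared calls, or 2%, below the 3.41% of the rest of chromosome 10. In this part 13 of 107 tested genes were called in the internode (3 higher, 10 lower), or 12.1%, near the 11.3% of all genes. In the ligular region 21 of 105 were called (11 higher, 10 lower), or 20%, against 26.8% of all genes. Opposite calls were 4 of the 100 genes tested in both tissues, out of 6 in the interval (background 1.75%). From 144 to 146 Mb the shared calls were 3 of 42, and from 146 to 149 Mb 19 of 114, or 16.7%. The last bin of the chromosome, which starts at 149 Mb, held 1 of 9.

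**Figure D1:**
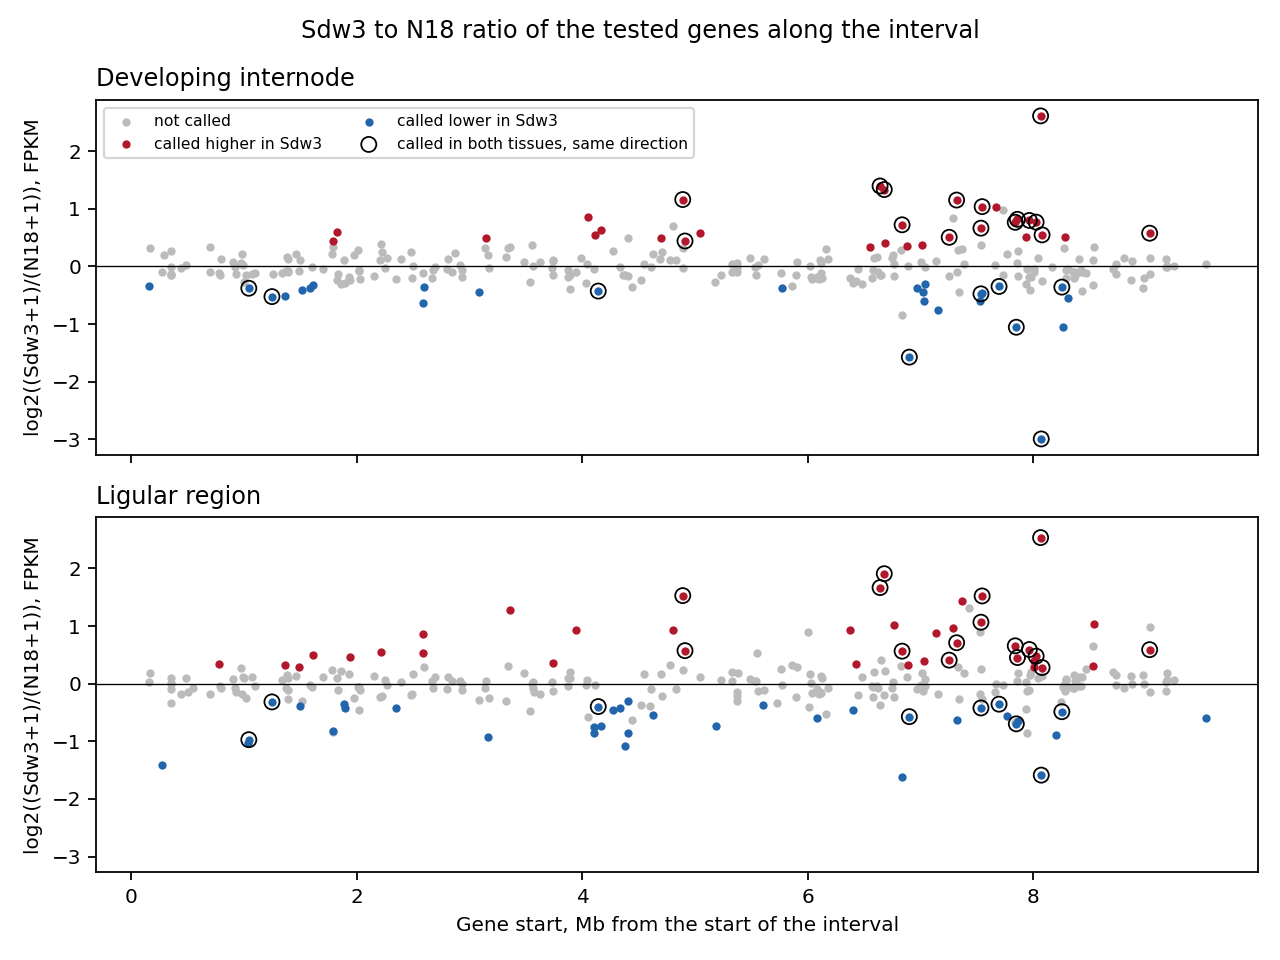
Each point is a gene tested by the authors, placed by its start in Mb from the start of the interval (horizontal) and its log2((Sdw3+1)/(N18+1)) of FPKM (vertical), with the developing internode above and the ligular region below. Red points are called higher in Sdw3, blue lower and grey not called; the 25 ringed genes are called in the same direction in both tissues, and 19 of them start between 146 and 149 Mb.

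The changed stretch was delimited with bins of 1 Mb, a bin counting as changed when its percentage of shared calls was at least 2 times that of the rest of chromosome 10, that is 6.81%. The bins at 140, 142 and 143 Mb held no shared call, and the bin at 141 Mb held 2 of 31 genes, or 6.45%. The first changed bin of the interval was that at 144 Mb, with 3 of 25 genes, followed by an unchanged bin at 145 Mb with 0 of 17. Just before the interval, the bin at 139 Mb also counted as changed, with 1 of 14 genes, or 7.14%. The bins at 146, 147 and 148 Mb held 4 of 38, 10 of 40 and 5 of 36. With the bin at 145 Mb bridged, the stretch ran from the start of GRMZM2G427031 at 144142960 to the end of GRMZM5G813783 at 149033859, 4.89 Mb with 23 shared calls. Without the bridging it began at GRMZM2G125083, at 146642044, as it did with bins of 0.5 Mb. Its end rests on a thinly filled bin: with bins of at least 20 genes it ended at 148255375, the end of GRMZM2G106792. Outside the interval, 19 of the 98 bins of chromosome 10 with at least 5 genes tested in both tissues also counted as changed, but no more than 2 of them lay side by side, against 4 in the interval. Of these 19 bins 2 held 20 or more such genes, against 4 of the 5 changed bins of the interval. Within the stretch the bin at 147 Mb had the highest share of internode calls. There 19 of 42 tested genes were called in the internode (10 higher, 9 lower; 45.2%) and 17 of 44 in the ligular region (11 higher, 6 lower; 38.6%). The bin at 144 Mb had the highest share of ligular calls within the stretch, 13 of 27 genes (3 higher, 10 lower, or 48.1%). Of its tested genes, 25% were called in the internode (6 higher, 1 lower). The backgrounds over all genes were 11.3% for internode calls and 26.8% for ligular calls. A ligular share this high was not particular to the stretch. Outside the interval, the bin at 130 Mb had 50% of 24 tested genes called, and that at 136 Mb 53.3% of 15.

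**Figure D2:**
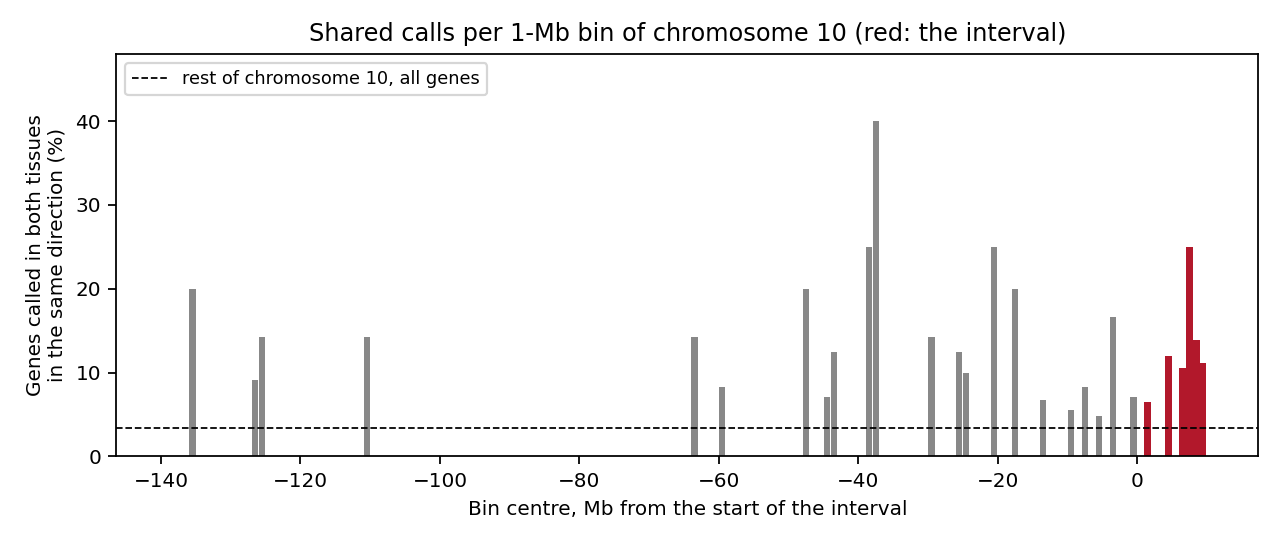
Bars give the percentage of genes tested in both tissues that were called in the same direction in both (vertical), in 1-Mb bins of chromosome 10 placed by distance from the start of the interval in Mb (horizontal); bins with fewer than 5 such genes are left out. The dashed line is the 3.41% of the rest of the chromosome; the red bars of the interval reach 25%, over 40 genes, and the taller grey bar of 40% covers 5 genes.

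The shared calls that were higher in Sdw3 began with a close pair. GRMZM2G445616 (144892213 to 144893091) was at 25.0 FPKM in Sdw3 and 10.6 in N18 in the internode, and at 157 and 53.8 in the ligular region, 2.35-fold and 2.92-fold higher. GRMZM2G073465 (144912180 to 144916261) was at 58.8 against 43.0 and at 209 against 140. Between them lies wox4 (GRMZM6G260565; 144893351 to 144894218), a WUSCHEL-related homeobox gene known in Arabidopsis for its part in vascular stem cells. The internode level of wox4 did not pass the test, at 5.85 in Sdw3 and 6.01 in N18, so neighbouring genes of the stretch were not all called there. In the ligular region wox4 was at 0.246 in Sdw3 and 0 in N18 and was not tested.

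The next pair was at least 2-fold higher in Sdw3 in each tissue. GRMZM2G107620 (146679226 to 146681804) was at 8.51 against 2.77 in the internode and 11.7 against 2.38 in the ligular region, 3.07-fold and 4.91-fold higher. GRMZM2G125083 (146642044 to 146648938) was at 22.4 against 7.90 and at 15.8 against 4.27, 2.84-fold and 3.69-fold higher. GRMZM2G464137 (146837232 to 146840709) changed less, at 68.8 against 41.3 and 66.0 against 44.3.

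In the bin at 147 Mb, 7 of the 10 shared calls were higher. GRMZM5G835039 (147547092 to 147548066) was at 5.19 in Sdw3 and 2.02 in N18 in the internode and at 11.9 and 3.47 in the ligular region. GRMZM2G092365 (147320863 to 147322577) was at 12.9 against 5.24 in the internode and at 8.95 against 5.08 in the ligular region, 2.46-fold and 1.76-fold higher. GRMZM2G142802 was at 22.5 against 12.4 and at 83.4 against 60.6. The increases thus lay at low as well as at high levels. Atg4b (GRMZM2G173682; 147965796 to 147969285), a cysteine protease gene of autophagy whose product trims and releases ATG8 proteins, was at 10.4 against 5.55 and at 8.18 against 5.08, 1.87-fold and 1.61-fold higher. Atg8b (GRMZM2G419694), which encodes such an ATG8 protein and also lies in the interval, at 142392552, did not pass the test in either tissue. Its internode levels were 60.9 in Sdw3 and 55.9 in N18, and its ligular levels 92.7 and 90.7.

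The other increases of this bin were 1.38-fold to 2.40-fold. GRMZM2G351577 was 1.47-fold higher in the internode and 1.38-fold in ligular tissue, GRMZM2G142667 1.86-fold and 1.73-fold, and GRMZM2G043776 1.64-fold and 2.40-fold. GRMZM2G142667 has the same locus as another gene model, and GRMZM2G043776 shares its locus (147536509 to 147545773) with GRMZM2G043903, itself a shared call in the opposite direction. The authors' counting may divide reads between genes of 1 locus, and the labels do not say whether strand was used, so the values of these 3 genes are uncertain. Near the chromosome end, GRMZM2G093623 was at 13.7 against 7.65 and at 7.22 against 4.90. GRMZM2G074107 was 1.53-fold and 1.22-fold higher, and GRMZM5G813783 1.56-fold and 1.54-fold.

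**Figure D3:**
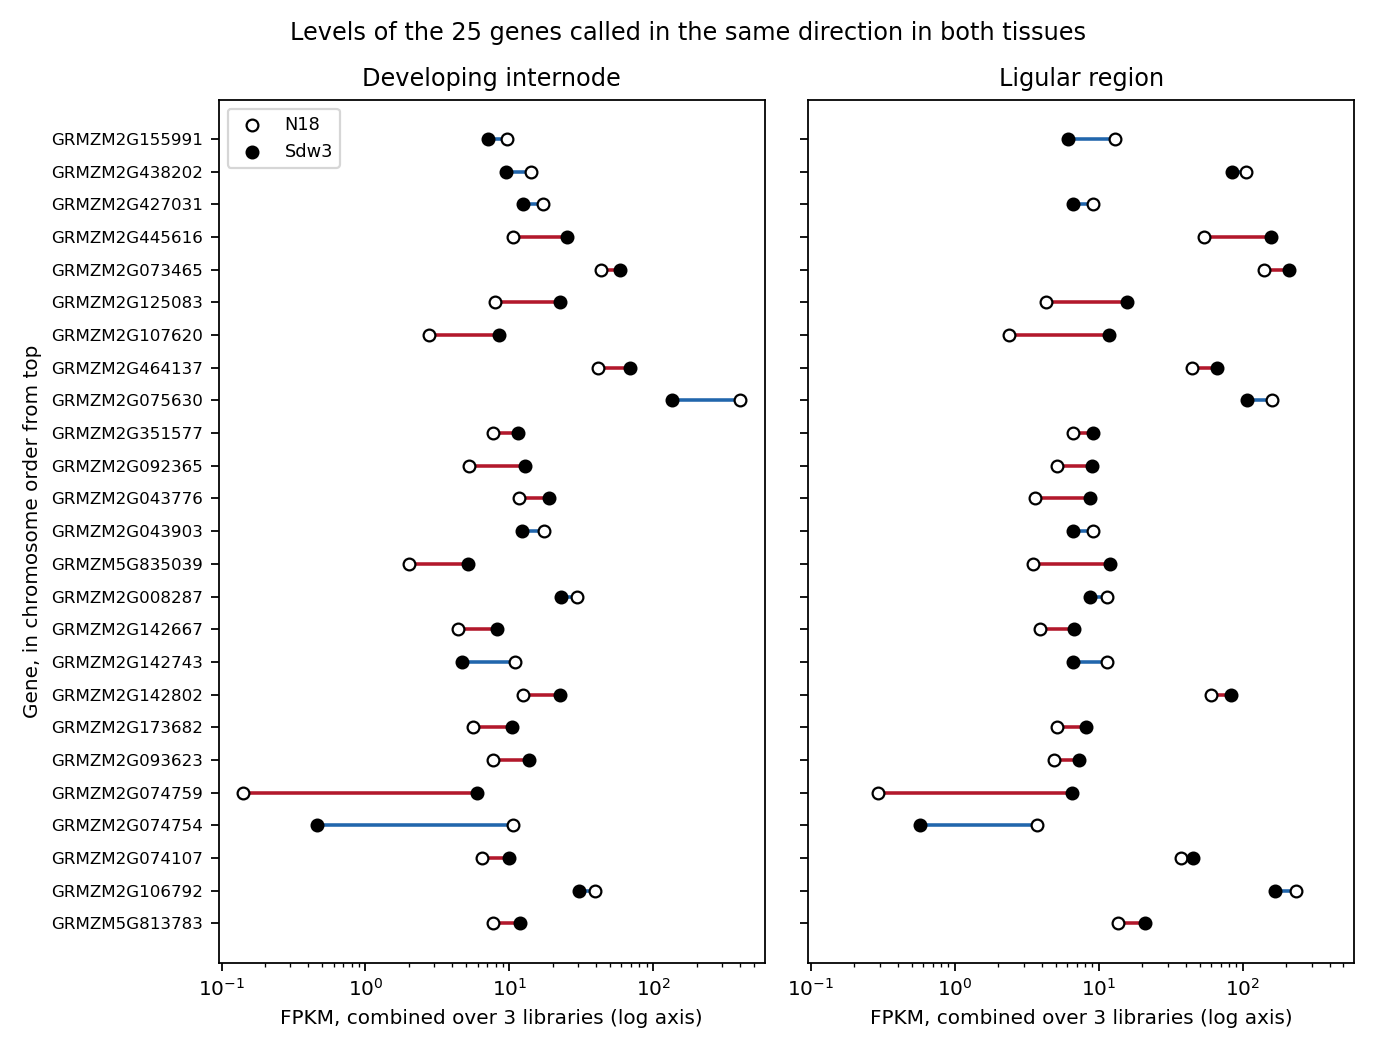
The FPKM of Sdw3 (filled circle) and N18 (open circle), on a log axis, of the 25 genes called in the same direction in both tissues, in chromosome order from the top, with the internode on the left and the ligular region on the right. Each circle is the authors' value combined over 3 libraries, with no error bar because no value per library is used; red lines join genes higher in Sdw3 (16) and blue lines genes lower in Sdw3 (9).

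In the internode, the widest called gap in each direction belonged to neighbours with opposite directions. AAE, also named o7 (GRMZM2G074759; 148065470 to 148067620), encodes an acyl-activating enzyme known from the opaque endosperm of its mutant. It was at 5.98 in Sdw3 and 0.142 in N18 in the internode, and at 6.50 and 0.293 in the ligular region. The next gene, GRMZM2G074754 (148071181 to 148074292), was at 0.462 in Sdw3 and 10.6 in N18 in the internode, and at 0.575 and 3.73 in the ligular region. In each tissue 1 of the pair was thus near 0 in N18 and the other under an FPKM of 1 in Sdw3. The starts of the pair are 5.71 kb apart. On the log2(FPKM + 1) scale the ratios were 2.61 and 2.54 for AAE and -2.99 and -1.59 for GRMZM2G074754. The folds without a pseudocount, 42.1 and 22.2 higher and 23.0 and 6.48 lower, rest on levels near 0. GRMZM2G074107, which starts 7.36 kb beyond GRMZM2G074754, differed far less, at 9.95 against 6.49 in the internode.

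Among the 9 shared calls lower in Sdw3, the most abundant in the internode was rpp2a-4 (GRMZM2G075630; 146901526 to 146903774), which encodes an acidic protein of the ribosomal stalk. It was at 134 in Sdw3 and 400.3 in N18 in the internode, and at 107 and 160 in the ligular region, 2.99-fold and 1.49-fold lower.

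GRMZM2G142743 (147850170 to 147853468) was at 4.71 in Sdw3 and 10.9 in N18 in the internode and at 6.61 and 11.3 in the ligular region. It lies between GRMZM2G142667 and GRMZM2G142802, which were higher, so 3 adjacent shared calls within the bin at 147 Mb had directions up, down and up. PP2C25 (GRMZM2G155991; 141044237 to 141048433), a protein phosphatase 2C gene, was the first shared call of the interval. It was at 7.11 against 9.54 in the internode and at 6.09 against 12.9 in the ligular region, 1.34-fold and 2.12-fold lower. The other lower shared calls changed by 1.25-fold to 1.48-fold: GRMZM2G438202, GRMZM2G427031, GRMZM2G043903, GRMZM2G008287 and GRMZM2G106792. Of these, GRMZM2G106792 (148253984 to 148255375) was the most abundant in the ligular region, at 168 against 236, and at 30.6 against 39.5 in the internode.

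The smallest adjusted p of each authors' deposited table was 0.00109 in the internode, shared by 32 called interval genes, and 0.000398 in the ligular region, shared by 40. Of the shared calls, those nearest the threshold in the internode, by the adjusted p of the authors' deposited table, were GRMZM5G813783 (0.0445), PP2C25 (0.0388) and GRMZM2G043903 (0.0335). In the ligular region the authors' deposited table had GRMZM2G043903 (0.0369) and GRMZM2G074107 (0.0357) nearest to it.

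The direction of change was compared over genes whose higher genotype reached an FPKM of 1 in each tissue. Of 264 such interval genes, 150 had the same direction in both tissues, or 56.8%. In the rest of chromosome 10 the share was 52.1% of 1060 genes. Among the other 10-Mb stretches of the chromosome, with 18 to 143 such genes each, it ranged from 43.0% to 64.6%, and 4 of them lay above the interval. The share was 47.5% from 140 to 144 Mb, 59.5% from 144 to 146 Mb and 64.9% from 146 to 149 Mb. In the bin at 147 Mb it was 80% (32 of 40 genes). Shared calls have the same direction by definition, so they raise this share. They were 10 of these 40 genes, and 19 of the 114 genes from 146 to 149 Mb. Among interval genes called in neither tissue, 85 of 168 had the same direction, or 50.6%, and from 146 to 149 Mb 32 of 63, or 50.8%. In the rest of chromosome 10, 389 of 753 such genes did, or 51.7%. In the bin at 147 Mb, 10 of the 15 uncalled genes had the same direction. Of the 25 shared calls, 10 changed more in the ligular region than in the internode on the log2 scale, and 6 were at least 2-fold in both tissues (2.26% of the 265 genes; background 0.428%). Whether the ratio of a gene differed between the tissues was not tested.

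**Figure D4:**
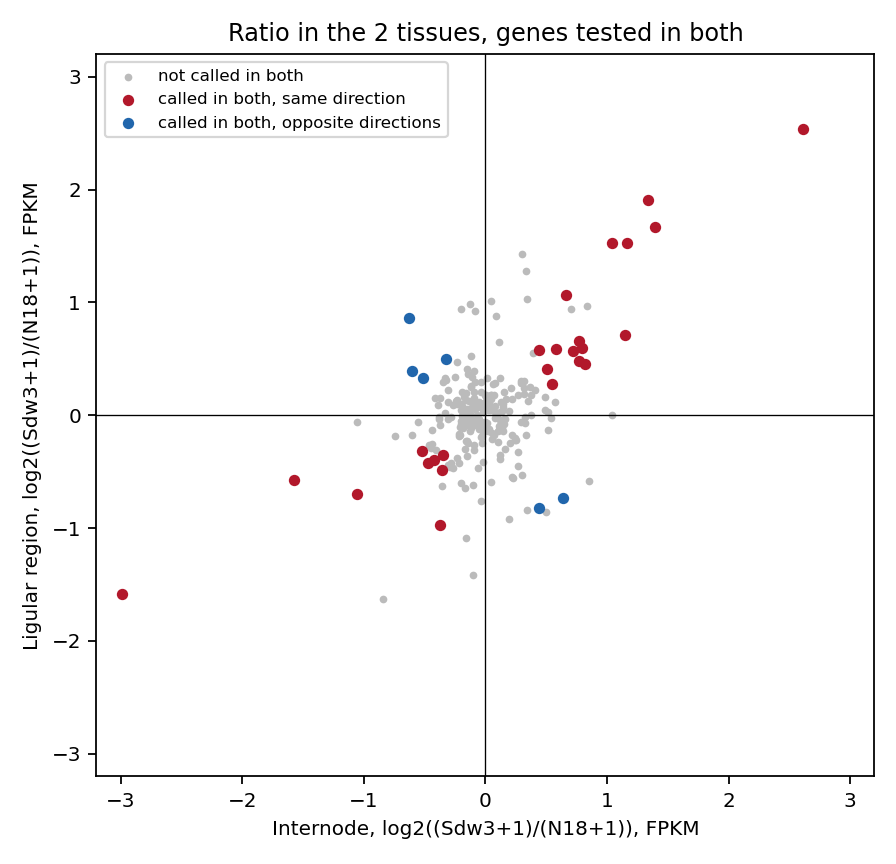
Each point is an interval gene tested in both tissues, with its log2((Sdw3+1)/(N18+1)) of FPKM in the internode (horizontal) and in the ligular region (vertical). The 25 shared calls (red) lie at the upper right and lower left, the 6 genes with opposite calls (blue) at the upper left and lower right, and the genes not called in both (grey) around 0.

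The 6 genes with opposite calls included met2 (GRMZM2G025592; 141612635 to 141620390), a chromomethylase gene that maintains DNA methylation outside CG sites. It was at 113 in Sdw3 and 142 in N18 in the internode, 1.25-fold lower, and at 12.5 and 8.57 in the ligular region, 1.46-fold higher. The widest contrast was that of GRMZM2G021885 (142593120 to 142596900), at 64.7 against 100.8 in the internode and 15.2 against 7.93 in the ligular region. GRMZM2G427054 (144168156 to 144168997) went the other way, at 90.4 against 57.7 and 11.5 against 19.8. All 3 changed more in fold in the ligular region than in the internode.

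Gene names were found for 49 interval genes, of which 40 were tested in at least 1 tissue and 19 called in at least 1. Of all interval genes tested in at least 1 tissue 103 of 303 were called in at least 1, or 34%, against a background of 31.4% over all genes. Among the shared calls 4 had a name. Among transcription factor genes, zfl1 (GRMZM2G098813; 140276802 to 140279827), a LEAFY relative that acts in floral and inflorescence development, was at 1.78 in Sdw3 and 6.44 in N18 in the ligular region. There it was called 3.61-fold lower, while its internode levels of 1.09 and 1.25 did not pass the test. ARF30 (GRMZM2G475882; 147154382 to 147163265), an auxin response factor gene, was called 1.69-fold lower in the internode, at 49.1 against 83.1. In the ligular region it was at 51.4 against 58.6, not called. bZIP113 (GRMZM2G445575) was 2.16-fold higher in the ligular region, at 7.49 against 3.47, and not called in the internode at 1.95 against 2.14. CA2P7 (GRMZM2G126957) was lower in the ligular region at 0.637 against 1.10. OFP25 (GRMZM2G106781), of the ovate family of transcriptional regulators, had a listed internode level of 0 in Sdw3 and 1.08 in N18 and was called lower. It was at 4.68 and 4.91 in the ligular region.

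Some named regulators of growth or of shoot stem cells were not called. GRF5 (GRMZM2G129147), a growth-regulating factor gene, was at 16.6 against 13.7 in the internode and at 44.6 against 56.2 in the ligular region. It shares its locus (140355565 to 140445720) with several other gene models, so these values are uncertain. wus2 (GRMZM2G028622), a WUSCHEL relative, was listed at 0 in all 4 groups, as was the auxin response factor gene ARF31. The authors did not test wus2 in either tissue. EREB156, HDZIV8_OCL8 and TIFY30, a gene of the family that holds the jasmonate repressors, did not pass the test in either tissue. TIFY30 also shares its locus with another gene model, so its values are uncertain too.

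Of genes for chromatin and protein modification, mbd123 (GRMZM2G119802), by name a methyl-CpG-binding domain gene, was lower in the internode at 6.74 against 9.27. GNAT42 (GRMZM5G818977), by name an acetyltransferase gene, was higher in the ligular region at 85.4 against 66.1. BAF60.9 and MED7.2 were not called in either tissue.

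Among plastid and metabolic genes, lhcb6 (GRMZM2G092427; 147325723 to 147327040), which encodes the minor antenna protein CP24 of photosystem II, had the highest level of any interval gene. It was at 777 in Sdw3 and 1196 in N18 in the ligular region, called 1.54-fold lower, and at 240 and 257 in the internode, not called. It starts just beyond GRMZM2G092365, a shared call higher in Sdw3, so these neighbours had opposite directions in the ligular region. The inositol phosphate kinase gene ipk1A (GRMZM2G067299), which acts in phytate synthesis, was lower there at 11.6 against 18.1, and Bm6 (GRMZM2G106376) at 2.31 against 3.54. Cel12Chr1 (GRMZM2G178025; 149528586 to 149531493), by name a cellulase gene and the last gene of the chromosome in the files, was lower there at 44.1 against 66.9. The potassium antiporter gene KEA2 is split over 2 adjacent gene models in the files, GRMZM2G039797 and GRMZM2G093643. Both models were called higher in the ligular region, 1.33-fold and 1.25-fold, and neither was called in the internode.

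The superoxide dismutase gene CSD4 (GRMZM5G895313), among the most abundant of the interval, did not pass the test, at 778 against 741 in the internode and 288 against 254 in the ligular region. The plasma membrane proton pump gene mha4, the glutamine synthetase gene gln1 (2 gene models), gtr1 and the kinase gene SnRK2.5 were also not called in either tissue. The gln1 model GRMZM2G098290 shares its locus with another gene model, so its values are uncertain. GRMZM2G094051 and GRMZM2G326066, also among the more abundant genes of the interval, were not called in the internode, at 298 against 321 and 291 against 315. They were called higher in the ligular region, 1.27-fold and 1.44-fold.

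Among called genes, the lowest ligular ratio on the log2(FPKM + 1) scale, -1.63, was that of GRMZM2G464157 (146835146 to 146836856), at 0.631 in Sdw3 and 4.03 in N18. Its internode levels of 0.284 and 1.30 pointed the same way but did not pass the test. Its neighbour GRMZM2G464137, a shared call, was higher in both tissues. GRMZM2G069389 (147366968 to 147369460) was 2.99-fold higher in the ligular region, at 17.0 against 5.68, and at 70.4 against 56.8 in the internode, not called. In reverse, GRMZM2G008622 (147669022 to 147672573) was 2.99-fold higher in the internode, at 3.35 against 1.12, and level in the ligular region at 1.89 in both genotypes.

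The authors tested neither tissue for 99 interval genes, and 50 genes were listed at 0 in all 4 groups. Among these were the microRNA precursors MIR171b, MIR393c, MIR395n, MIR395o and MIR395p. An untested gene had a wide gap: the 223-base model GRMZM2G037461 was listed in the ligular region at 0 for Sdw3 and 7.77 for N18, and at 0 for both genotypes in the internode. No interval gene had an FPKM of at least 1 in both tissues in 1 genotype and under 0.1 in both in the other.

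At the lower edge of the interval, the 4 genes tested in both tissues just before 140 Mb were called in neither. The nearest, GRMZM2G364060 (139910488 to 139921914), was at 90.3 against 88.9 in the internode and 66.2 against 69.6 in the ligular region. The first interval gene tested in both tissues, AC208110.2_FG006 (140161390 to 140166711), was at 23.0 against 29.2 in the internode, called lower, and at 9.23 against 9.08 in the ligular region, not called.

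In the rest of chromosome 10, 36 of 1057 genes were shared calls, 28 of them higher and 8 lower. By stretches of 10 Mb the share was 9.43% in the interval and 4.90% in the stretch just before it, and it reached 13.9% between 30 and 40 Mb, where 36 genes were tested in both tissues (5 shared calls). Single genes outside changed more than most inside: ZAR1 (GRMZM2G446201; 119433275 to 119435009) was at 15.1 against 0.219 in the internode and 15.6 against 1.09 in the ligular region. The interval from 170 to 180 Mb of chromosome 3 had a like share, with 14 shared calls among 134 genes, or 10.4%. Of the 194 1-Mb bins of chromosomes 1 to 10 with at least 20 genes tested in both tissues, the bin at 147 Mb ranked 2, with 25% of genes as shared calls. The bins at 148, 144 and 146 Mb ranked 6, 9 and 10, and the median bin had 3.57%. A bin of chromosome 10 far outside the interval, which starts at 4 Mb, ranked 3, with 5 of 25 genes, or 20%. The first was a bin of chromosome 5 that starts at 8 Mb, with 6 of 23 genes.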

How the data were processed

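Per the submitters' processing notes, the tools were TopHat2 2.1.0 and Cufflinks, with CASAVA 1.8 and bcl2fastq, and the build was B73 RefGen_v3; which annotation and Cufflinks version were used, and how libraries were scaled, is not given in the sources used here. The authors deposited 1 FPKM per gene, genotype and tissue; the unit is inferred from Cufflinks and the column layout. The p-value and adjusted p (q-value) of each gene are the authors', per the file headers, over all genes they tested in a tissue. From these, log2((Sdw3 FPKM + 1)/(N18 FPKM + 1)) was computed here, and genes were placed by the start of their locus in the files. The interval and all rules were chosen with earlier results of these data known. Some genes of the interval are not reported here. Names came from RefSeq (assembly Zm-B73-REFERENCE-NAM-5.0), in which 246 of 402 identifiers matched; names on another chromosome or with several entries were dropped. The rule for named genes took the 12 shared calls with the highest and the 12 with the lowest mean ratio, up to 5 opposite calls, the 5 most abundant genes, called genes with a name, and the edges. The remaining shared and opposite calls were added for completeness, and other genes named (uncalled relatives, neighbours, and the largest calls of a single tissue) were chosen after their values were seen. Classes by product and promoter motifs were planned and not used here. The search for the stretch was tested on simulated data with 1 unbroken stretch of even and higher share of shared calls than found here. That was a check of the code and does not show how exact the edges found here are. Alternatives were other thresholds, pseudocounts, filters, scalings and bins. Values were computed in Python 3.11.15 with pandas 2.3.3, numpy 2.4.6 and scipy 1.17.1, and figures drawn with matplotlib 3.10.9.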

Additional observations from a re-analysis of the deposited data

Results flagged for a closer look

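The 6 interval genes called in both tissues but in opposite directions are listed for a closer look. They are 2.26% of the 265 genes tested in both tissues, near the 1.75% of all genes and the 2.08% of the rest of chromosome 10. The difference between the tissues was not tested for any of them. Its size is the ligular log2 ratio minus the internode log2 ratio, each as log2((Sdw3 FPKM + 1)/(N18 FPKM + 1)). It was 1.49 for GRMZM2G021885, 0.997 for GRMZM2G150248, 0.84 for GRMZM2G031586 and 0.82 for met2 (GRMZM2G025592), which were lower in Sdw3 in the internode and higher in the ligular region. It was -1.37 for GRMZM2G427054 and -1.25 for GRMZM2G354855, which were higher in the internode and lower in the ligular region. GRMZM2G150248 was the only one of the 6 beyond 146 Mb, at 8.44 against 13.4 in the internode and 28.7 against 21.7 in the ligular region.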

How the results depend on the processing

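No paired analysis was possible because the files hold 1 combined value per genotype and tissue; the leave-one-out fits were not run for the same reason. With an adjusted p under 0.01 the shared calls fell from 25 to 16 and the internode genes lower in Sdw3 from 27 to 13, and the stretch ran from 144892213 to 148074292. Asking also for a 2-fold change left 7 higher and 4 lower in the internode, 10 higher and 5 lower in the ligular region, and 6 shared calls. The stretch began at 146642044 with bins of 0.5 Mb, and also without bridging, an alternative chosen after seeing the data. Dividing by the column sum moved the internode median log2 ratio from -0.03 to -0.0833. Of the 57 values recomputed, the other 47 stayed within 1.5 times the first count, within 1 Mb of the first position, or, for medians and shares, within an exact binomial interval over the genes, used here as a tolerance and not as a replicate error. These include falls at an adjusted p under 0.01 from 31 to 22 internode genes and from 40 to 28 ligular genes higher in Sdw3, and an end of the stretch at 148255375 with bins of at least 20 genes, also chosen after seeing the data. The depth of each library is unknown, so no detection limit is given.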
